A study of Mus musculus with 30 samples.

Results

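Collagens are the secreted triple-helical proteins that build fibrils, basement membranes and filaments in the extracellular matrix. The collagen genes described here are all genes whose symbol is Col followed by a number, the letter a and a number, read from every probe set that the platform annotation pairs with that 1 symbol. They hold 42 genes and 82 probe sets, of 18194 genes and 45101 probe sets measured, and 15 of them have a single probe set. A collagen molecule is a trimer of alpha chains, so genes of 1 type (Col4a1 and Col4a2, Col6a1 to Col6a3) supply chains of the same molecule. Fibrillar collagens (11 genes here) form the banded fibrils of connective tissue, and basement membrane collagens (8 genes, types IV, XV and XVIII) form or border the sheet under endothelium and under the pial surface of the brain. The other 23 genes encode collagens on fibril surfaces, beaded filaments, networks, anchoring fibrils and transmembrane proteins. In the central nervous system collagen is known mainly from blood vessels and meninges, and brain parenchyma holds little of the fibrillar types.

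RNA of 30 samples was hybridised to mouse expression arrays, 1 array per sample, all on a mixed Swiss and C57BL/6J background. The study asked how ID4 and the basic helix-loop-helix factors OLIG1 and OLIG2 relate in glioma-forming progenitors. Untransduced neurospheres were Olig1/2-/- (null, 6 lines), Olig1/2+/- (heterozygous, 3 lines) or Olig1/2+/+ (wild-type, 3 lines). Virus cultures were null lines 12, 13 and 14 with an Olig2 retrovirus or with a GFP retrovirus, and heterozygous lines 11 and 15 with either virus. Every neurosphere culture was also Ink4a/Arf-/- and carried hEGFRvIII, an active form of the EGF receptor delivered by retrovirus with puromycin selection. The cells came from E14.5 ganglionic eminences, grew as floating spheres in serum-free medium with EGF and bFGF, and were harvested at differing passages, and the second virus was selected with blasticidin. Tissue was E18.5 spinal cord and forebrain, each from embryos 1 and 2 (null) and embryos 3 and 4 (heterozygous). The tissue genotype is given as Olig2 -/- and Olig2 +/- in the sample labels and as Olig1/2 in the study design. The tissue labels name neither the Ink4a/Arf deletion nor hEGFRvIII. Signals are MAS5 intensities, and the median signal per array ran from 128.9 to 217.4. Probe sets differ in brightness for reasons other than RNA amount, so levels were compared between samples and not between genes. The labels number lines and embryos, and p-values measure the spread between those cultures or embryos. Differences are log2 differences of signal plus 16, and a call is an adjusted p under 0.05 in limma over all genes tested.

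Olig1 signals were 7064 to 9509 in untransduced null neurospheres, against 20360.5 to 25483 in heterozygous and 22640.5 to 30893 in wild-type neurospheres. Olig2 signals were 6177 to 11577 in null neurospheres, against 11500.1 to 14405 in heterozygous and 13959.5 to 18048 in wild-type neurospheres. In null lines labelled as carrying the Olig2 virus the Olig2 signal was 4450.3 to 10011, against 8279 to 10275 with the GFP virus, and the groups overlapped. Heterozygous lines had Olig2 signals of 10464 to 11641 with the Olig2 virus, against 13285.5 to 14757 with the GFP virus. The position of these probes relative to the deleted sequence and to the viral insert was not given, so the virus labels were not checked by them. Olig1 was 1878 to 2007 in null against 3901 to 4068 in heterozygous spinal cord, and Olig2 was 23.8 to 58.5 in null against 335 to 736 in heterozygous spinal cord. In forebrain Olig1 was 1686 to 1889 in null against 1787 to 2187 in heterozygous embryos, and Olig2 was 109 to 179 against 269 to 519 in heterozygous forebrains. The array of null line 13 with GFP virus had a 3′ to 5′ Gapdh log2 ratio of 0.43, and the other neurosphere arrays were all below 0. That array's RNA also had a 260 to 280 absorbance ratio of 2.83, above the others. Collagen calls that use this array were refitted without it, and calls of partner genes were not.

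More collagen genes reached the measured range in tissue than in neurospheres. A probe set was read as measured where its signal reached its array's median, and 8 of 42 collagen genes did so on every one of 22 neurosphere arrays, while 12 did so on none. In tissue 18 of 42 did so on all 8 arrays and 8 on none. Tissue and neurosphere arrays were not tested against each other. Tested genes reached the array median on as many arrays as the smallest group of the fit holds. By that rule 34 collagen genes were tested in at least 1 fit, and 8 were tested in none (Col4a4, Col6a5, Col9a2, Col10a1, Col13a1, Col17a1, Col20a1 and Col24a1).

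**Figure D1:**
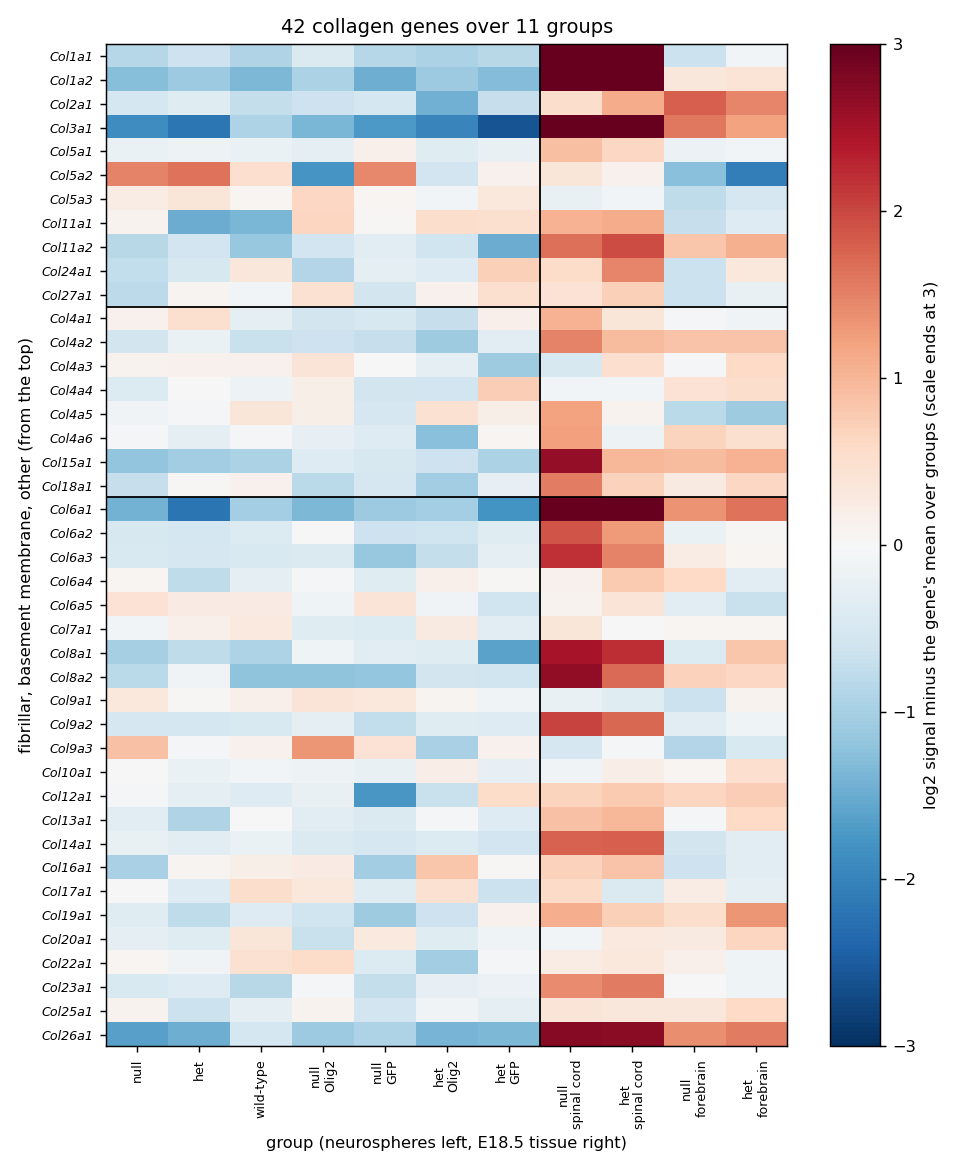
Mean log2 signal of each collagen gene (rows, 42) in each group (columns, 11), less that gene's mean over groups; red is above and blue below, and the scale ends at 3 on either side. Col1a1, Col1a2, Col3a1 and Col6a1 reach the end of the scale in the 2 spinal cord columns, and Col5a2 is blue in null neurospheres with Olig2 virus and in forebrain.

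Col11a1 and Col16a1 passed the test between null and Olig-expressing neurospheres, in opposite directions. Col11a1, a chain of the type XI collagen that seeds cartilage fibrils, was 2.88-fold higher, and Col16a1, a fibril-associated collagen, was 2.16-fold lower. They are 2 of 24 collagen genes tested (8.33% of all genes tested were called in this comparison), with 1 higher (4.34% of all genes) and 1 lower (3.98%). The median difference was -0.003 over the 24 collagen genes and -0.02 over all genes, and 12 of 24 differences were positive. Fibrillar genes had 1 of 7 called, basement membrane genes 0 of 6, and the remaining collagens 1 of 11.

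Col16a1 signals in null neurospheres were 177 at the lowest, 225 at the median and 383 at the highest. They were 576, 539 and 451 in heterozygous and 884, 656 and 293 in wild-type neurospheres. All 3 heterozygous lines lay above every null line, and wild-type line 20 lay inside the null range. The difference from Olig-expressing lines was -1.11 (SE 0.24, adjusted p = 0.00989). Against wild-type lines alone Col16a1 was the 1 collagen called of 24 (6.71% of all genes were called, 2.85% lower), at -1.16 (SE 0.29, adjusted p = 0.0288). That call was lost without any 1 of 6 arrays (wild-type lines 2 and 3 and null lines 12, 13, 21 and 24), at -0.83 (adjusted p = 0.186) without wild-type line 2, and with no trend in the variance (adjusted p = 0.0508). Against heterozygous lines it was -1.07 (SE 0.29, adjusted p = 0.0683), and none of 24 collagens was called (3.53% of all genes).

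Col11a1 in null neurospheres was 242 at the lowest, 642 at the median and 1287 at the highest. Heterozygous neurospheres had 215.5, 349.7 and 116, and wild-type neurospheres had 245, 257 and 184. Null line 14, the lowest null line, lay inside the range of the Olig-expressing lines, and the remaining null lines lay above all 6 Olig-expressing lines. The difference was 1.53 (SE 0.35, adjusted p = 0.0138), and the other Col11a1 probe set gave 1.79 (SE 0.49, adjusted p = 0.0425). Against wild-type lines it was 1.47 (SE 0.43, adjusted p = 0.0562), and without null line 14 it was 1.74 (adjusted p = 0.00698). Against heterozygous lines it was 1.58 (SE 0.43, adjusted p = 0.0592), and without null line 14 it was 1.86 (adjusted p = 0.00877). Its partner chain Col11a2 was not tested in these arrays.

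Col9a3, a chain of the type IX collagen that coats cartilage fibrils, came next in order of p. Null lines had signals of 969 at the lowest, 1155 at the median and 3469.7 at the highest, against 939.6, 736 and 672 in heterozygous and 361, 1005.5 and 1799 in wild-type lines. Every null line was above every heterozygous line, and the wild-type lines overlapped both groups. Its difference was 0.83 (SE 0.37, adjusted p = 0.214). Col9a1, a partner chain, gave 0.24 (SE 0.16, adjusted p = 0.448) on the probe set read and 1.12 (SE 0.25, adjusted p = 0.014) on its other probe set. On that second probe set null lines were 317.5 at the lowest, 475 at the median and 918 at the highest, against 251, 379 and 181 in heterozygous and 232.5, 171 and 136 in wild-type lines. The 2 probe sets of Col9a1 therefore give different calls, also against wild-type lines, where they gave 0.18 (SE 0.20, adjusted p = 0.686) and 1.38 (SE 0.31, adjusted p = 0.0159).

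None of the 6 basement membrane collagens tested was called by genotype on the probe sets read. Col4a1, a chain of the common type IV network, was 2075 at the lowest, 3676 at the median and 3914 at the highest in null lines, against 4752, 4696 and 3431 in heterozygous and 2141, 3238.5 and 2112 in wild-type lines. Its difference was 0.04 (SE 0.16, adjusted p = 0.929). Col4a2, its partner chain, had a difference of -0.11 (SE 0.15, adjusted p = 0.757). Col4a5, a chain of the type IV networks of kidney and smooth muscle basement membranes, gave -0.28 (SE 0.17, adjusted p = 0.394) on the probe set read and -0.54 (SE 0.15, adjusted p = 0.0425) on the other. Its second probe set was 236 at the lowest, 311 at the median and 356 at the highest in null lines, against 453, 448 and 289.9 in heterozygous and 541, 610.2 and 448 in wild-type lines. Only heterozygous line 26 lay inside the null range.

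Heterozygous and wild-type neurospheres showed no collagen call in 24 genes (0.0333% of all genes were called by limma, and 799 genes had an unadjusted p under 0.05). Smallest in p were Col4a1 at 0.79 (SE 0.23, adjusted p = 0.446), Col5a2 at 1.13 (SE 0.37, adjusted p = 0.561) and Col4a2 at 0.46 (SE 0.21, adjusted p = 0.747). Col5a2, a type V chain that sets fibril diameter, was 2669, 2656 and 3437 in heterozygous and 1539.5, 1071 and 1393.5 in wild-type lines, and the groups did not overlap. In null lines it was 1329 at the lowest, 2766 at the median and 4339.7 at the highest, a difference of 0.98 (SE 0.32, adjusted p = 0.0877) from wild-type. Among collagens measured on many arrays, null against Olig-expressing lines differed by -0.01 (SE 0.17, adjusted p = 0.978) for Col6a2 and 0.01 (SE 0.11, adjusted p = 0.984) for Col5a3.

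Genes that act with collagens were read from lists chosen with earlier results of these data known. Of 24 tested genes of collagen synthesis and processing, 2 were higher and 1 lower in null than in Olig-expressing neurospheres, where 8.33% of all genes were called, 4.34% higher and 3.98% lower. Sparc, a collagen-binding matricellular protein, was higher by 0.90 (adjusted p = 0.0142), and Crtap, a subunit of the prolyl 3-hydroxylase complex, by 0.47 (adjusted p = 0.00266). P3h2, a prolyl 3-hydroxylase that acts on type IV chains, fell by 0.84 on the log2 scale (adjusted p = 0.0106). Of 10 tested degradation genes, the metalloproteinase inhibitors Timp3 and Timp4 fell by 0.94 (adjusted p = 0.00771) and 0.98 (adjusted p = 0.021). Of 6 tested collagen receptors, Adgrg1, a receptor of type III collagen, fell by 0.65 (adjusted p = 2.82e-04). Of 10 tested partners in the basement membrane, Nid1, which links laminin to type IV collagen, rose by 2.57 (adjusted p = 1.31e-04), and Lamc1, a laminin chain, by 0.59 (adjusted p = 0.0225).

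The promoters of 3 collagens called in neurosphere comparisons are shown because OLIG2 belongs to a class of factors known to bind E-boxes (CANNTG, the same on both strands). Those of Col6a2 and Col5a2, also called in a neurosphere comparison below, are not shown. The windows run from 250 bases before to 50 bases after 1 start for each gene shown (RefSeq, GRCm38.p6), with capitals on each E-box. This start can differ from the outer limit of the annotated gene. For Col27a1 the start used was 63215412, and the gene limit was 63214009. Col16a1 (chr4:130047590-130047889, plus strand) holds 2, Col27a1 (chr4:63215162-63215461, plus strand) holds 1 and Col11a1 (chr3:114030290-114030589, plus strand) holds 0 in these windows.
Col16a1: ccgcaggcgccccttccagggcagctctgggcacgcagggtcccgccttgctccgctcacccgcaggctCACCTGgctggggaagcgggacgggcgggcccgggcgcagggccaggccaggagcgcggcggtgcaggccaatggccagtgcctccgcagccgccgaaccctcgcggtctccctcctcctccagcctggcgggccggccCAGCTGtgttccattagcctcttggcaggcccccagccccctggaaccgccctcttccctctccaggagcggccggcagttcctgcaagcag
Col27a1: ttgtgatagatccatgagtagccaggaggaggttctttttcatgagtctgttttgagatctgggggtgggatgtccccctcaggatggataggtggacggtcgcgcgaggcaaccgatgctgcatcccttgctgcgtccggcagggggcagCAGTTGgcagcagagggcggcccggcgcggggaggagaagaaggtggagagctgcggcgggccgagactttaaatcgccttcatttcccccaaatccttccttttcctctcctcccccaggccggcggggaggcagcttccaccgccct
Col11a1: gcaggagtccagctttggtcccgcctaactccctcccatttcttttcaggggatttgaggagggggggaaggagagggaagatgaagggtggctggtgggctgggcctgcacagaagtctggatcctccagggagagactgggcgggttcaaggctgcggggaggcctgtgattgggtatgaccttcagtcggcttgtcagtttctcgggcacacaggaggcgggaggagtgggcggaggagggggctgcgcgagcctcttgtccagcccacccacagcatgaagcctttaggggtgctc
The Col16a1 hexamers begin 181 and 42 bases before the start, and the Col27a1 hexamer 99 bases before it. At least 1 E-box occurs in 18 of 36 collagen promoter windows (50%), which belong to 33 of the 42 genes, and in 72.3% of all 32851 promoter windows of the same length. A match of these letters describes the window and shows no binding.

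Null lines labelled with the Olig2 virus gave 4 collagen calls against GFP virus, and Col16a1, lower in untransduced null lines, was among the 3 that rose. Col27a1, a fibrillar collagen of cartilage, rose 2.01-fold, Col16a1 2.47-fold and Col6a2, a chain of beaded-filament type VI collagen, 1.53-fold. Col5a2 was lower, by a size that 1 array below the measured range leaves uncertain. These are 4 of 25 collagens tested (7.9% of all genes were called), 3 higher (3.25% of all genes) and 1 lower (4.65%). The median difference of the 25 was 0.42, against 0.03 for all genes, and 20 of 25 differences were positive. With quantile normalization the 2 medians were 0.11 and -0.04, and with 75th percentile scaling 0.31 and -0.09. With that last scaling 306 genes were called higher and 1030 lower over all genes, against 405 and 579 as reported.

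Col16a1 was 593, 719.6 and 466 in null lines 12, 13 and 14 with Olig2 virus, against 358, 232 and 139 with GFP virus. All 3 Olig2 arrays were above all 3 GFP arrays, and the difference was 1.30 (SE 0.29, adjusted p = 0.0216). Within lines the differences were 0.70, 1.57 and 1.64. Leaving out any 1 of 4 arrays ended the call (Olig2 arrays of lines 12 and 13, GFP arrays of lines 13 and 14), at 1.32 (adjusted p = 0.0552) without GFP line 13. It also ended with no trend (adjusted p = 0.057).

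Col27a1 was 956, 830.5 and 607.5 with Olig2 virus, against 426, 351 and 373 with GFP virus in the same null lines. The groups did not overlap, and the difference was 1.01 (SE 0.19, adjusted p = 0.0116). It was 0.87 (adjusted p = 0.0537) without the Olig2 array of line 12, the 1 array that ended the call. In untransduced null lines Col27a1 was 77.5 at the lowest, 394 at the median and 625 at the highest, against 629, 521 and 667 in heterozygous and 587, 515 and 497 in wild-type lines, a difference of -0.78 (SE 0.35, adjusted p = 0.224) from Olig-expressing lines. The single lowest array was null line 13. The other Col27a1 probe set gave -0.27 (SE 0.38, adjusted p = 0.772) from Olig-expressing lines. From wild-type lines alone it gave 0.59 (SE 0.47, adjusted p = 0.568), against -0.69 on the probe set read. Between heterozygous and wild-type lines it gave 1.71 (SE 0.54, adjusted p = 0.531), against 0.18 on the probe set read.

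Col6a2 was 759, 859 and 680.0 with Olig2 virus, against 538, 452 and 489 with GFP virus. All Olig2 arrays lay above all GFP arrays, with a difference of 0.62 (SE 0.17, adjusted p = 0.0476). Leaving out any array except the Olig2 array of line 14 ended this call, with adjusted p up to 0.154, and so did the line as a block (adjusted p = 0.0583). It also ended with quantile normalization (adjusted p = 0.0973), 75th percentile scaling (adjusted p = 0.0841), no filter (adjusted p = 0.0734), no trend (adjusted p = 0.0711), all probe sets (adjusted p = 0.0521), no _s_at and _x_at probe sets (adjusted p = 0.182) and untransduced arrays as the control (adjusted p = 0.182). The other Col6a2 probe set gave 1.16 (SE 0.50, adjusted p = 0.166). Of its partner chains, Col6a3 gave 0.71 (SE 0.32, adjusted p = 0.196) and Col6a1 was not tested.

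Col5a2 was 880.4, 471 and 33 in null lines 12, 13 and 14 with Olig2 virus, against 2471, 1795 and 3668 with GFP virus. Every Olig2 array was below every GFP array, and line 14 with Olig2 virus was far below the other two. The difference was -3.20 (SE 0.81, adjusted p = 0.036). The array of line 14 with Olig2 virus had a median signal of 173.6, so its Col5a2 signal lay below the measured range and the size depends on the pseudocount, at -3.39 (adjusted p = 0.045) with a pseudocount of 1 and -2.83 (adjusted p = 0.0232) with 64. Within lines 12 and 13 it was -1.47 and -1.90. Its other probe set gave -2.69 (SE 0.74, adjusted p = 0.0482). Without the Olig2 array of line 14 the difference was -1.95 (adjusted p = 0.0128). The call ended without any 1 of 6 arrays (the Olig2 array of line 13, all 3 null GFP arrays and both heterozygous GFP arrays), at -3.45 (adjusted p = 0.0706) without GFP line 13. It also ended with no filter (adjusted p = 0.0515), no trend (adjusted p = 0.0938) and untransduced arrays as the control (adjusted p = 0.0698). Partner chains Col5a1 at -0.45 (SE 0.25, adjusted p = 0.283) and Col5a3 at 0.56 (SE 0.24, adjusted p = 0.175) were not called.

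With the Gapdh 3′ to 5′ ratio as a covariate, an alternative chosen after the data were seen, none of these 4 collagens kept its call and 1 other collagen was called. The 4 differences were then 1.25 for Col16a1 (adjusted p = 0.175), 0.88 for Col27a1 (adjusted p = 0.143), 0.46 for Col6a2 (adjusted p = 0.366) and -3.21 for Col5a2 (adjusted p = 0.224). All 3 null Olig2 arrays had ratios of -0.25 to -0.20, and the null GFP arrays of lines 12, 13 and 14 had -0.09, 0.43 and -0.04. The part of RNA quality in these differences was not tested beyond that fit. The 3 null Olig2 arrays also showed a raised median of chromosome 15 genes, by 0.15 to 0.25, as did GFP line 12 at 0.23, and none of the 4 called collagens lies on that chromosome.

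**Figure D2:**
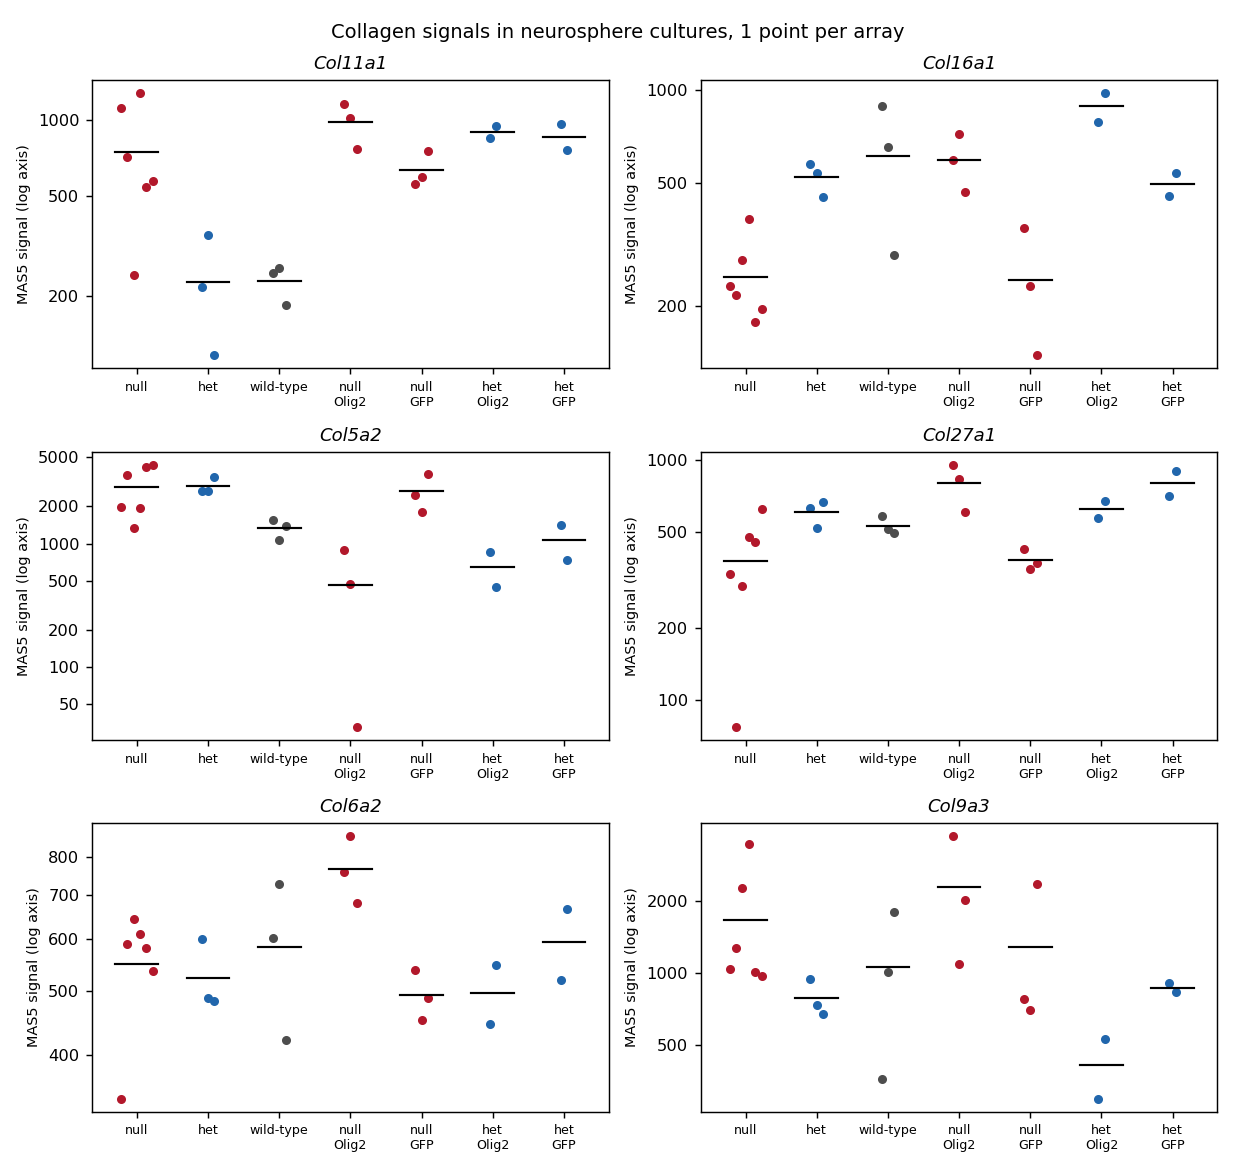
MAS5 signal (vertical, log axis) of 6 collagen genes in 7 neurosphere groups, 1 point per array and a bar at the group mean; red is null, blue heterozygous (het) and grey wild-type. Col16a1 is low in null and null GFP arrays and higher in null Olig2 arrays, Col5a2 has 1 null Olig2 array at 33, and Col11a1 is higher in the 2 heterozygous GFP arrays than in untransduced heterozygous arrays.

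Heterozygous lines showed no collagen call between Olig2 and GFP virus in 25 genes (0% of all genes were called by limma, and 484 genes had an unadjusted p under 0.05). Col16a1 was 790.5 and 979 with Olig2 virus, against 454 and 540.2 with GFP virus, higher in both lines and 0.81 (SE 0.35, adjusted p = 1). Col5a2 was 857 and 446.5 with Olig2 virus, against 1406 and 731 with GFP virus, lower in both lines, at a difference of -0.70 with adjusted p = 1. Smallest in p were Col4a6 at -1.32 (SE 0.43, adjusted p = 1), Col4a1 at -0.85 (SE 0.37, adjusted p = 1) and Col16a1. Col4a1 was 2223 and 1542 with Olig2 virus, against 3489 and 3212 with GFP virus in heterozygous lines. In null lines Col4a1 overlapped, at 1899, 1973 and 2276.5 with Olig2 virus, against 3849, 1312 and 1983 with GFP virus.

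The effect of Olig2 virus was not shown to differ between null and heterozygous lines for any of 25 collagens (0.0562% of all genes were called in that test). Col27a1 came nearest, with a difference between effects of 1.36 (SE 0.30, adjusted p = 0.153). In heterozygous lines Col27a1 was 570.4 and 674 with Olig2 virus, against 705 and 897 with GFP virus, lower in both. The other Col27a1 probe set was 334.2 and 377.3 with Olig2 virus, against 236.9 and 289.3 with GFP virus, higher in both. Its difference between effects was 1.61 (SE 0.58, adjusted p = 0.381). Next were Col6a2 at 0.86 (SE 0.27, adjusted p = 0.308) and Col12a1, a fibril-associated collagen, at 2.74 (SE 0.90, adjusted p = 0.324). Col12a1 was 151, 284 and 48.9 in null lines with Olig2 virus, against 37.7, 28.1 and 42.2 with GFP virus. In heterozygous lines it was 64 and 133 with Olig2 virus, against 249.9 and 227.5 with GFP virus, the opposite direction on this probe set. The other Col12a1 probe set was 190.9 and 159.1 with Olig2 virus, against 52.1 and 118.9 with GFP virus, higher in both heterozygous lines. Its difference between effects was 0.08 (SE 1.25, adjusted p = 0.987).

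Null lines with GFP virus had 1 collagen call of 25 against heterozygous lines with GFP virus (1.7% of all genes were called, 0.546% lower). It was Col27a1, at the signals given above and -1.03 (SE 0.21, adjusted p = 0.0378), and it was lost without either heterozygous GFP array, either heterozygous Olig2 array, the null GFP arrays of lines 13 and 14 or the null Olig2 array of line 13. Without GFP line 13 it was -0.97 (adjusted p = 0.0929), and with the Gapdh ratio as a covariate -0.91 (adjusted p = 0.205). It also ended with no filter (adjusted p = 0.0586), quantile normalization (adjusted p = 0.0703) and no trend (adjusted p = 0.0921). Its other probe set gave -1.68 (SE 0.41, adjusted p = 0.0752). Col12a1 followed at -2.30 (SE 0.64, adjusted p = 0.109) and Col16a1 at -1.07 (SE 0.32, adjusted p = 0.133). Col11a1, higher in untransduced null lines, was 559, 592 and 756 in null lines with GFP virus, against 963 and 759 in heterozygous lines with GFP virus, a difference of -0.43 (SE 0.21, adjusted p = 0.372). On this probe set both heterozygous GFP arrays were above every null GFP array, the nearest pair being 758.6 against 756. The other Col11a1 probe set overlapped, at 181.1, 200.4 and 321.9 in null against 374.9 and 249.1 in heterozygous GFP arrays. It gave -0.40 (SE 0.29, adjusted p = 0.554). Both differences had the opposite sign to those of the untransduced lines. The change of the Col11a1 genotype difference between untransduced and GFP cultures was not tested.

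GFP virus alone gave no collagen call in 26 genes against untransduced cultures of the same 5 lines (0.0241% of all genes were called by limma, and 1567 genes had an unadjusted p under 0.05). Smallest in p were Col4a1 at -0.62 (SE 0.23, adjusted p = 0.292), Col11a1 at 0.85 (SE 0.33, adjusted p = 0.333) and Col27a1 at 0.67 (SE 0.32, adjusted p = 0.411). Within lines the GFP minus untransduced difference of Col11a1 was 2.08 in heterozygous line 11 and 1.08 in heterozygous line 15. In null lines 12, 13 and 14 it was -0.98, -0.26 and 1.58.

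Among collagen partners in null lines, Olig2 virus against GFP virus gave 5 calls. Sparc fell by 1.56 (adjusted p = 0.0035), Lama4, a laminin chain of vessel walls, fell by 2.91 (adjusted p = 0.00922), and Lamc1 fell by 0.67 (adjusted p = 0.0242). Timp4 rose by 1.90 (adjusted p = 0.00431) and Ddr2, a receptor of fibrillar collagen, by 1.94 (adjusted p = 0.0235). They are 1 of 24 synthesis genes, 1 of 10 degradation genes, 1 of 8 receptors and 2 of 11 basement membrane partners, where 7.9% of all genes were called. Under GFP virus, null against heterozygous lines had higher Sparc by 1.89 (adjusted p = 0.00408), Lama4 by 2.78 (adjusted p = 0.0384) and Plod2, a lysyl hydroxylase, by 0.85 (adjusted p = 0.0242). In that comparison 1.7% of all genes were called, 1.16% higher. The 2 comparisons share the null GFP arrays.

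In E18.5 spinal cord, 2 basement membrane collagens were higher in null than in heterozygous embryos. Col4a1 rose 1.61-fold and Col15a1, a collagen at the border of vessel basement membranes, 3.14-fold. They were the 2 calls among 33 collagens tested (0.13% of all genes were called, 0.0567% higher), both of them among the 7 basement membrane genes tested. Of those 7 genes 6 had a positive difference, with a median of 0.85, while the median was 0.24 over all 33 collagens, -0.0047 over 10 fibrillar genes and -0.0043 over all genes. The fibrillar genes were mixed, and none was called. Col3a1 was 11897 and 12023 in null against 5792 and 8262 in heterozygous spinal cords. Col1a2 was 8991.5 and 9750 in null against 5571 and 7502 in heterozygous spinal cords. Col2a1, Col5a3, Col11a1, Col11a2 and Col27a1 had lower means in null spinal cords. In bulk tissue, fewer cells of a type and less RNA per cell cannot be told apart.

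Col4a1 was 6223 and 6271 in the 2 null spinal cords, against 3571.5 and 4190.1 in the 2 heterozygous spinal cords. The groups did not overlap, and the difference was 0.69 (SE 0.09, adjusted p = 0.0169). The second Col4a1 probe set was 1900.5 and 2045 in null, against 1108 and 1093 in heterozygous spinal cords, 0.83 (SE 0.11, adjusted p = 0.0196). Leaving out either null spinal cord or heterozygous spinal cord 3 ended the call, at 0.69, 0.68 and 0.57 with adjusted p of 0.111, 0.157 and 0.176, each in a fit where the lone array was assumed to vary like the other groups. The call also ended without a trend in the variance (adjusted p = 0.291).

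Col4a2 was 2439 and 2077 in null, against 1397 and 1702 in heterozygous spinal cords, which was 0.54 (SE 0.16, adjusted p = 0.518) and no call. At the starts used, Col4a1 and Col4a2 begin 21 bases apart on opposite strands. For Col4a1 that start was 11312826, and the outer limit of the annotated gene was 11312889. Their promoters are shown because the pair lies head to head over 1 region and both chains enter the same trimer. Capitals mark the 78 bases that both windows hold, which read as reverse complements of each other. The windows are chr8:11312777-11313076 (minus strand) and chr8:11312555-11312854 (plus strand), from RefSeq, GRCm38.p6.
Col4a1: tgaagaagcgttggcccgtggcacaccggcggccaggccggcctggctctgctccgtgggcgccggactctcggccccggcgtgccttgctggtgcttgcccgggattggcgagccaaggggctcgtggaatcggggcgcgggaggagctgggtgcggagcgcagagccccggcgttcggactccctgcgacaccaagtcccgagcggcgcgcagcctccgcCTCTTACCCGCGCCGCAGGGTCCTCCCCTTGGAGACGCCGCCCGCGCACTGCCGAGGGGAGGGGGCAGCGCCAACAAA
Col4a2: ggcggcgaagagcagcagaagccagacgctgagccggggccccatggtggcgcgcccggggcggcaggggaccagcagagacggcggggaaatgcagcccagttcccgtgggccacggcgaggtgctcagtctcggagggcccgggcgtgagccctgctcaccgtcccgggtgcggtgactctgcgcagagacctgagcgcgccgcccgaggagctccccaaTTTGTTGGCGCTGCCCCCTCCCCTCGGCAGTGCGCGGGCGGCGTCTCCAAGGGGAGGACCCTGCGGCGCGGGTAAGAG
Neither window holds an E-box. Both genes had higher means in null spinal cord, 6247 ± 33.9 in null against 3881 ± 437 in heterozygous cords for Col4a1 and 2258 ± 256 in null against 1549.8 ± 216 in heterozygous cords for Col4a2 (SD, n = 2 each).

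Col15a1 was 914 and 905 in null, against 289 and 269 in heterozygous spinal cords, with no overlap and 1.65 (SE 0.26, adjusted p = 0.0431). Leaving out any 1 of the 4 spinal cord arrays ended the call, at differences of 1.60 to 1.70 and adjusted p of 0.178 to 0.299. With a pseudocount of 1, all probe sets, no filter or no trend it was also lost, at adjusted p of 0.0541, 0.0587, 0.115 and 0.26. Just short of a call, Col6a1 was 2541 and 2528.5 in null, against 1229.6 and 1510.2 in heterozygous spinal cords (difference 0.89, SE 0.15, adjusted p = 0.0648, and called with a pseudocount of 64, adjusted p = 0.0476). Col4a5 was 1344.5 and 1294 in null, against 506 and 723 in heterozygous spinal cords (difference 1.10, SE 0.20, adjusted p = 0.0977). Col4a6, its partner chain, was 586 and 500.1 in null, against 117 and 323 in heterozygous spinal cords (difference 1.39, SE 0.38, adjusted p = 0.43). In each of these 3 genes both null arrays were above both heterozygous arrays. The share of all genes with such a separation is not given here.

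Summed marker signals of several cell types also differed between null and heterozygous spinal cords. The summed signal of 8 endothelial markers was 5351 to 5472 in null against 3863 to 4677 in heterozygous spinal cords, and that of 9 mural markers 5801 to 6281 against 4794 to 4920. The 10 markers of meningeal fibroblasts summed to 15486 to 15702 in null against 8218 to 12432 in heterozygous spinal cords, mostly Igf2. Of 9 tested, 1 was called higher, where 0.0567% of all genes were called higher. The 8 microglial markers summed to 7924 to 8105 in null against 5463 to 6063 in heterozygous spinal cords. The neuron marker sum was lower, at 67334 to 70466 in null against 78897 to 82558 in heterozygous spinal cords. Nefl and Nefm had the largest mean differences, at 8655 and 5268 in null against 12384 and 11700 in heterozygous cords. Mean Snap25 was 8101.5 in null against 8102.6 in heterozygous cords, Tubb3 8002 against 8147 and Map2 10582 against 10755. Skeletal muscle markers were 787 to 1071 in null against 1221 to 1623 in heterozygous spinal cords. The Gapdh 3′ to 5′ ratio was 0.30 and 0.29 in null cords and 0.37 and 0.04 in heterozygous cords 3 and 4. The part of cell composition or of this ratio in the collagen differences was not tested. No gene of the lists of collagen synthesis, degradation, receptors or basement membrane partners was called between null and heterozygous tissue.

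Forebrain showed no collagen call by genotype in 33 genes (0.0405% of all genes were called). Smallest in p were Col5a2 at 0.81 (SE 0.25, adjusted p = 0.647), Col9a3 at -0.43 (SE 0.16, adjusted p = 0.713) and Col3a1 at 0.38 (SE 0.15, adjusted p = 0.748). Col5a2 was 523 and 270.4 in null, against 211 and 204 in heterozygous forebrains. Col4a1 was 3017 and 2919.7 in null, against 2894 and 2765 in heterozygous forebrains, and Col15a1 was 223 and 329.6 in null, against 361 and 231 in heterozygous forebrains, with overlap. The genotype effect was not shown to differ between spinal cord and forebrain for any of 33 collagens (0% of all genes were called by limma, and 706 genes had an unadjusted p under 0.05). The differences between effects were 1.19 (SE 0.21, adjusted p = 0.399) for Col6a1, 1.74 (SE 0.37, adjusted p = 0.513) for Col15a1 and 0.62 (SE 0.13, adjusted p = 0.513) for Col4a1.

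**Figure D3:**
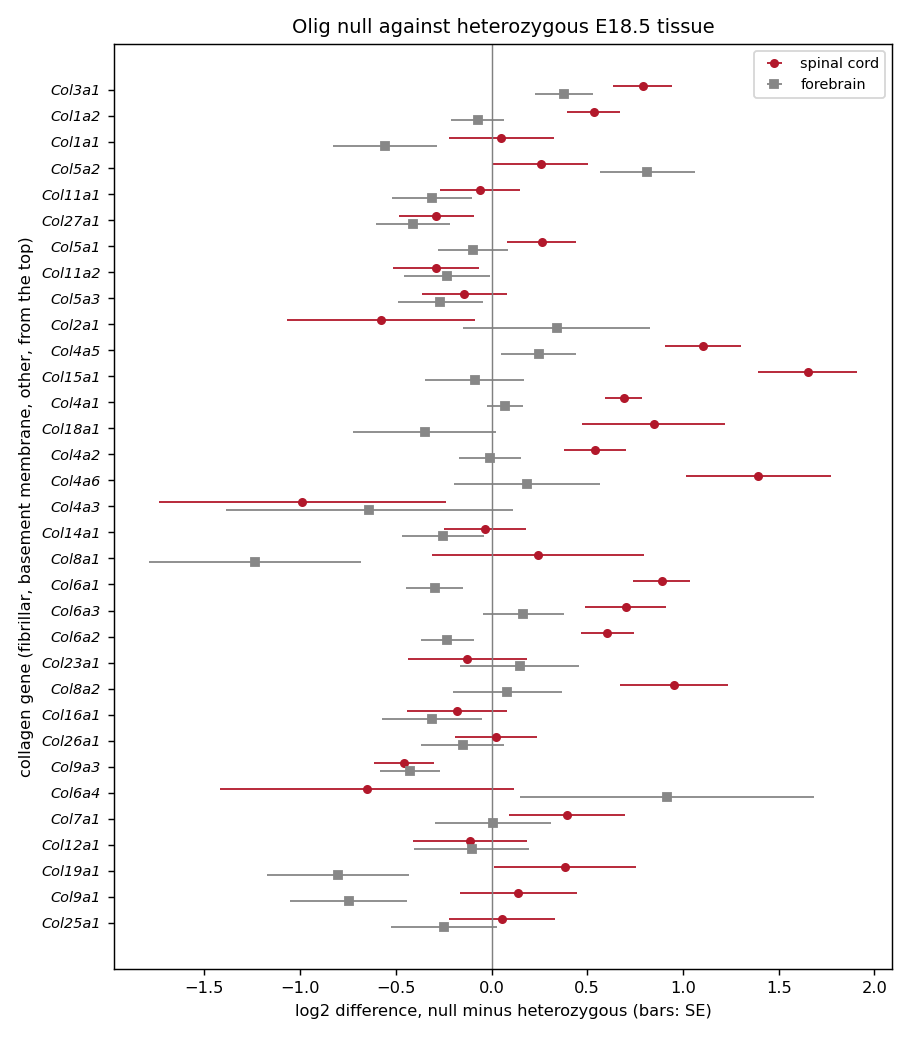
Log2 difference, null minus heterozygous, of 33 collagen genes in spinal cord (red circles) and forebrain (grey squares), with bars of 1 SE; genes are grouped from the top as fibrillar, basement membrane and other. Col15a1 at 1.65 and Col4a6 at 1.39 are the 2 rightmost spinal cord points, and forebrain points lie between -1.24 and 0.92.

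Spinal cord had more collagen signal than forebrain. Of 33 collagens tested, of 42 in all, 23 were called higher in spinal cord (40% of all genes were called, 21.3% higher) and 0 lower (18.7% of all genes). The 23 made up 9 of 10 fibrillar genes, 4 of 7 basement membrane genes and 10 of 16 other collagens, with median differences of 1.32, 0.67 and 1.24. The median was 0.89 over the 33 collagens and -0.01 over all genes. In 22 of the 23 the spinal cord was higher in all 4 embryos, and in the other, Col15a1, in 3. At the level of probe sets 41 of 56 tested were higher and 0 lower. Some of these passed the filter through spinal cord arrays alone. Another Col23a1 probe set, for example, was 608.3 to 924.6 in spinal cords, against 46.3 to 94.1 in forebrains. The shares above are over genes, and the share over all probe sets is not given here. Col8a2 reached the array median on the 4 spinal cord arrays and on 0 forebrain arrays, and Col8a1 and Col1a1 on 4 spinal cord arrays and 1 forebrain array each. These 3 genes entered the test largely through the tissue where they are high, so the counts are a description of the genes and probe sets that passed the filter.

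Types I and III, the main fibrils of soft connective tissue, differed most. Col3a1 was 11897 and 12023 in null spinal cords and 5792 and 8262 in heterozygous spinal cords, against 903 and 901 in null and 762 and 626 in heterozygous forebrains. The spinal cord signal was 11.3-fold that of forebrain, a difference of 3.50 (SE 0.11, adjusted p = 2.89e-09). Col1a2 was 8991.5 and 9750.0 in null and 5571 and 7502 in heterozygous spinal cords, against 672 and 641 in null and 748 and 639 in heterozygous forebrains. All 4 spinal cords were far above all 4 forebrains, and the difference was 3.50 (SE 0.10, adjusted p = 1.68e-09). Col1a1, the other type I chain, was 2435 and 2292 in null and 2281.5 and 2276 in heterozygous spinal cords, against 146 and 173 in null and 357 and 162 in heterozygous forebrains. Its difference was 3.46 (SE 0.19, adjusted p = 2.34e-07) on this probe set and 4.18 (SE 0.15, adjusted p = 2.00e-08) on another.

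The remaining fibrillar genes followed at smaller sizes. Col5a2 was 1.92 (SE 0.18, adjusted p = 8.69e-06), Col5a1 0.89 (SE 0.13, adjusted p = 0.000244) and Col5a3 0.47 (SE 0.16, adjusted p = 0.0347), all chains of type V. The Col5a3 call ended without any 1 of 6 arrays. In separate fits of all 8 tissue arrays it also ended with the embryo as a block (adjusted p = 0.0543) and with no filter (adjusted p = 0.0675). Type XI chains Col11a1 and Col11a2 were at 1.63 and 0.85, and Col27a1 was at 1.01, all called. Col2a1, the chain of cartilage type II collagen, was the exception among fibrillar genes, at 86.1 and 147 in null and 277 and 111 in heterozygous spinal cords, against 200.5 and 429 in null and 228 and 230.2 in heterozygous forebrains (difference -0.81, SE 0.35, adjusted p = 0.0882). Tissue groups of Col2a1 overlapped.

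Type VI chains were higher in spinal cord too. Col6a1, Col6a2 and Col6a3, 3 chains of type VI, differed by 1.96, 1.66 and 1.68, and Col6a1 was 2541 and 2528.5 in null and 1229.6 and 1510.2 in heterozygous spinal cords, against 403.5 and 437 in null and 476 and 568 in heterozygous forebrains. Of the type VIII network chains, Col8a1 was 501 and 727 in null and 431 and 597 in heterozygous spinal cords, against 27.3 and 149 in null and 124 and 267 in heterozygous forebrains. Col8a2 was 648 and 654 in null and 311.5 and 347 in heterozygous spinal cords, against 189.9 and 127 in null and 126 and 169.7 in heterozygous forebrains, with every forebrain signal below the array median. Among fibril-associated genes Col14a1 differed by 2.22 (SE 0.15, adjusted p = 9.99e-07), Col16a1 by 1.24 (SE 0.19, adjusted p = 0.000318) and Col9a3 by 0.40 (SE 0.11, adjusted p = 0.0136). The transmembrane collagen Col23a1 differed by 1.54 (SE 0.22, adjusted p = 0.000209), and Col26a1 by 1.24 (SE 0.15, adjusted p = 7.44e-05). Col12a1, Col19a1, Col9a1, Col25a1, Col7a1 and Col6a4 had no call, with differences of -0.10 to 0.30, although second probe sets of Col12a1 and Col25a1 gave 2.67 (SE 0.27, adjusted p = 2.23e-05) and 0.51 (SE 0.16, adjusted p = 0.0285). On that Col12a1 probe set every forebrain signal was below the array median.

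**Figure D4:**
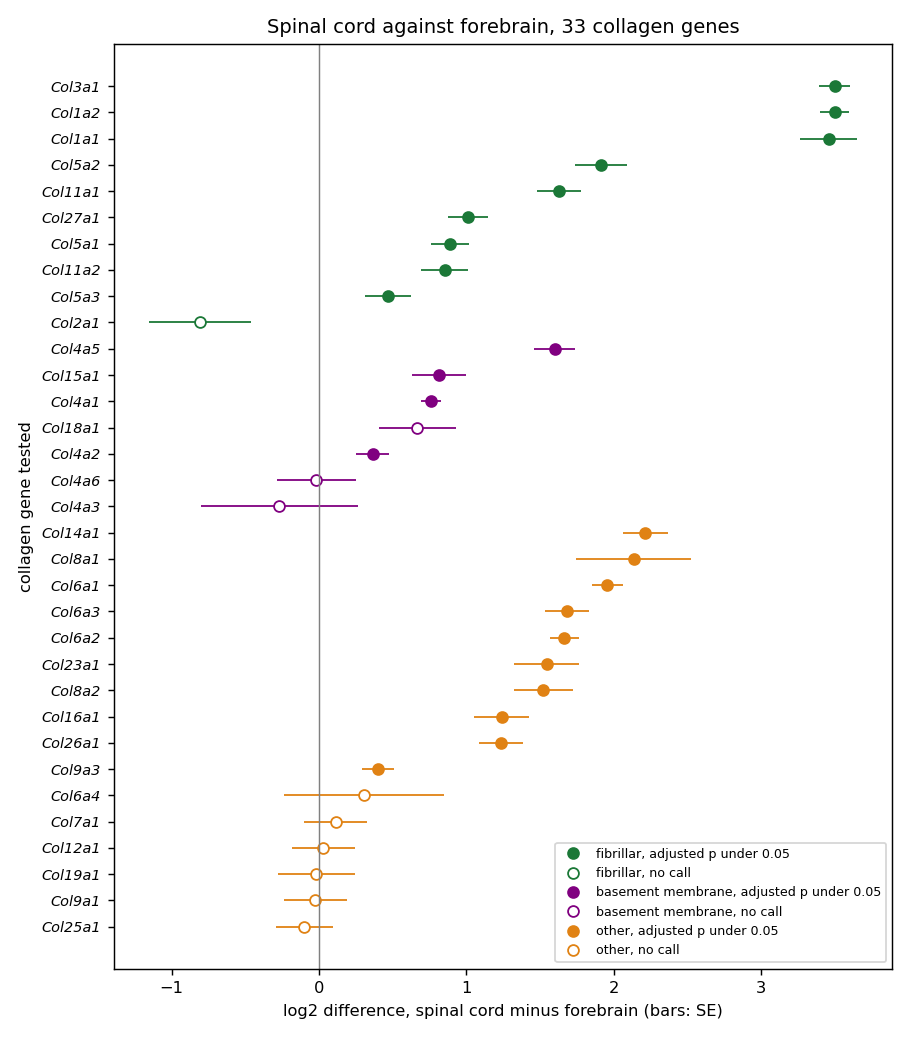
Log2 difference, spinal cord minus forebrain, of 33 collagen genes, with bars of 1 SE; filled points passed the test and open points did not, coloured by class. Col3a1, Col1a2 and Col1a1 stand at 3.46 to 3.50, and every filled point is right of 0.

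Basement membrane collagens split by chain and by probe set. Col4a5 differed by 1.60 (SE 0.14, adjusted p = 6.14e-06), Col15a1 by 0.82 (SE 0.18, adjusted p = 0.00431), Col4a1 by 0.76 (SE 0.07, adjusted p = 6.29e-06) and Col4a2 by 0.36 (SE 0.11, adjusted p = 0.0268). The Col4a2 call ended without any 1 of 4 arrays, with differences of 0.27 to 0.31, and with no trend (adjusted p = 0.0868). The second Col4a1 probe set was not called, at -0.19 (SE 0.08, adjusted p = 0.0776). It was 1900.5 and 2045 in null spinal cords, against 1610.5 and 1500.4 in null forebrains, and 1108 and 1093 in heterozygous spinal cords, against 1838 and 1801 in heterozygous forebrains. Its null spinal cords lay above the null forebrains and its heterozygous spinal cords below the heterozygous forebrains, and the test of that difference gave 1.06 (SE 0.15, adjusted p = 0.165). Col4a6 and Col18a1 had no call on the probe sets read at -0.02 (SE 0.27, adjusted p = 0.962) and 0.67 (SE 0.26, adjusted p = 0.0651), and their second probe sets gave 2.41 (SE 0.60, adjusted p = 0.00866) and 1.13 (SE 0.18, adjusted p = 0.000625). The second Col4a6 probe set reached the array median on the 2 null spinal cord arrays alone. Col4a3 gave -0.27 (SE 0.53, adjusted p = 0.725).

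**Figure D5:**
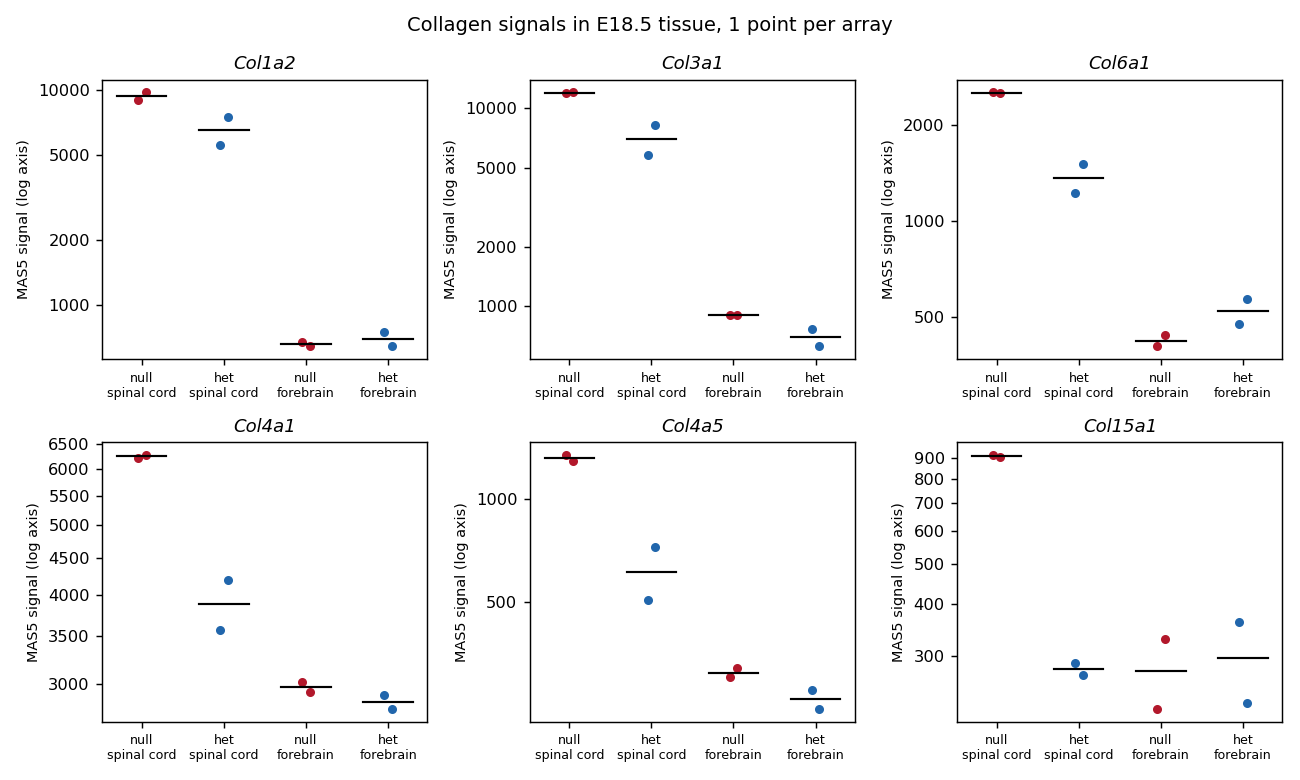
MAS5 signal (vertical, log axis) of 6 collagen genes in 4 tissue groups, 1 point per array and a bar at the group mean; red is null and blue heterozygous (het). Col1a2, Col3a1 and Col6a1 separate all spinal cords from all forebrains, and Col15a1 is near 900 in null spinal cords only among the 4 groups.

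Part of the genes that process and bind collagen also passed the test in this comparison. Of 24 synthesis genes 12 were higher and 1 lower, where 40% of all genes were called, 21.3% higher and 18.7% lower, with Sparc at 2.25 (adjusted p = 1.14e-08), Plod2 at 1.12 (adjusted p = 1.39e-05) and Lox, the enzyme that cross-links fibrils, at 1.97 (adjusted p = 3.36e-05). Adamts3, a procollagen N-proteinase, fell by 1.59 (adjusted p = 1.22e-05). Of 14 basement membrane partners 9 were higher and 0 lower, with Nid1 at 2.09 (adjusted p = 1.32e-07), Pxdn, which cross-links type IV collagen, at 0.88 (adjusted p = 5.52e-06) and Lama1 at 1.91 (adjusted p = 7.65e-05). Degradation genes had 7 of 11 higher and 1 lower, with Timp3 at 1.88 (adjusted p = 1.94e-07), and receptors 3 of 6 higher and 1 lower, with Ddr1 at 0.80 (adjusted p = 3.47e-04).

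The summed signal of 10 meningeal fibroblast markers was 8218 to 15702 in spinal cords, against 2114 to 2655 in forebrains. Of 9 tested, 7 were called higher in spinal cord, where 21.3% of all genes were called higher. Lum, Ogn, Aldh1a2 and Crabp2 each reached the array median on only 4 arrays, neurospheres included. Mean Aldh1a2 was 25 in null and 93 in heterozygous forebrains, against 674 in null and 767 in heterozygous spinal cords. Mean Crabp2 was 57 and 43 in these forebrains, against 575 and 461 in these spinal cords. Such markers entered the test largely through the tissue where they are high, so the count of 7 describes the markers that passed the filter. Mural markers summed to 4794 to 6281 in spinal cords, against 4263 to 4673 in forebrains, and microglial markers to 5463 to 8105, against 2279 to 3018 in forebrains. Endothelial markers summed to 3863 to 5472 in spinal cords, against 3662 to 4275 in forebrains, and cartilage and bone markers to 792 to 1048 in spinal cords, against 769 to 894 in forebrains. Skeletal muscle markers summed to 787 to 1623 in spinal cords, against 617 to 979.5 in forebrains. In neurospheres the meningeal sum was 689 to 1545. The Gapdh 3′ to 5′ log2 ratio was 0.04 to 0.37 in spinal cords, against -0.22 to -0.07 in forebrains, so this ratio also moved with tissue. The part of cell composition or of this ratio in the collagen differences was not tested.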

How the data were processed

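The arrays were single-colour Affymetrix mouse arrays. The deposited values are MAS5 intensity signals on a linear scale, scaled by the authors to a trimmed mean of 500 without the lowest and highest 2 percent, per the labels; no source used here gives the MAS5 version. From them log2(signal + 16) was computed and fitted with limma 3.58.1 (R 4.3.3, eBayes with a trend) in 4 sets of arrays, with Benjamini-Hochberg adjustment over all genes tested at 0.05. Genes were read from 1 probe set, that of the highest mean log2 signal over the 30 arrays, and kept if the number of arrays at or above their own median was at least the size of the smallest group. Of the probe sets, 34958 had 1 symbol and 932 several, and 64 were controls. All 42 collagen symbols matched RefSeq.

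The text names every called collagen, the 3 of smallest p where fewer than 3 were called, the 8 genes of highest mean signal in neurospheres and in tissue by the probe set read, disagreeing probe sets, partner chains and up to 4 genes per related list. Members and lists were chosen with earlier results of these data known. Titles show that numbered virus arrays share a line and numbered tissues an embryo, so the numbers pair samples; the correlations of paired deviations were -0.20 to 0.24. Tested on simulated data, the fit recovered 98% of 2-fold changes for null against Olig-expressing neurospheres (12047 genes), 67% for Olig2 against GFP virus in null lines (12540 genes), 93% for GFP virus against untransduced cultures (12526 genes) and 64% for spinal cord genotype (12241 genes). The changed genes were drawn from those at or above the median on every array of the set, with independent noise. Only 8 of 42 collagen genes did so on all 22 neurosphere arrays and 18 on all 8 tissue arrays. Recovery of genes with lower signals was not estimated. Alternatives were the pseudocount, filter, normalization, probe set rule, trend, replicate block and each array left out, plus 2 added after the data were seen. The number of arrays limits the precision.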

Additional observations from a re-analysis of the deposited data

Results flagged for a closer look

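Among the 24 collagen genes tested in the 6 untransduced null cultures, 4 had a single array far from the others by Dixon's criterion, which chance meets in about 1 in 20 groups. Col27a1 was 77.5 in line 13, against 299.1 to 624.8 in the other null lines. Col4a1 was 2075 in line 21, against 3234 to 3914 in the others. Col4a2 was 794.6 in line 13, against 451.4 to 552.6 in the others. Col6a2 was 343.7 in line 12, against 537.4 to 642.7 in the others.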

How the results depend on the processing

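None of the 60 single-gene differences recomputed under the alternatives reversed. The alternatives kept the probe set read, except where leaving out _s_at and _x_at probe sets changed it. Reversal on a gene's other probe set was therefore mostly not examined. The second Col4a1 probe set, described above, had the opposite sign for spinal cord against forebrain. Differences near 0 were not among the 60. The collagen median of null against Olig-expressing neurospheres, -0.003 as reported, was 0.02 with quantile normalization. Counts of called collagens moved as follows. For Olig2 against GFP virus in null lines (4 as reported) there were 2 with no filter, 1 with no trend and 1 with the Gapdh ratio as a covariate, chosen after seeing the data; with untransduced arrays as the control, also chosen after seeing the data, there were 3, and 3 with quantile normalization, 75th percentile scaling, all probe sets and no _s_at and _x_at probe sets. For null against heterozygous spinal cord (2) there was 1 with a pseudocount of 1, with no filter and with all probe sets, 0 with no trend and 3 with a pseudocount of 64. For null against Olig-expressing neurospheres (2) there were 4 with all probe sets. For null against wild-type neurospheres (1) there were 2 with quantile normalization, 2 with 75th percentile scaling, 3 with all probe sets and 0 with no trend. For null against heterozygous lines with GFP virus (1) there were 0 with no filter, with quantile normalization and with no trend. Leaving out 1 array gave 1 to 6 calls for Olig2 against GFP virus in null lines, 0 to 2 for spinal cord genotype, 2 in every fit for null against Olig-expressing neurospheres, 0 to 3 for null against wild-type neurospheres, 0 to 1 for null against heterozygous neurospheres, 0 to 3 for null against heterozygous lines with GFP virus, 21 to 25 for spinal cord against forebrain and 0 elsewhere. With the line or embryo as a replicate block there were 3 calls for Olig2 against GFP virus in null lines, where Col6a2 was lost, and 23 for spinal cord against forebrain (23 as reported), where Col5a3 was lost (adjusted p = 0.0543); the block changed no other named call. That last comparison had 22 calls with no trend, where Col4a2 was lost, and 27 with all probe sets. The cause of these moves was not tested. With 2 embryos per genotype, or 2 heterozygous virus lines, small differences were not detectable.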
